A study of Mus musculus with 8 samples.

Results

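The Slc25 genes encode the mitochondrial carriers, the largest family of solute carriers in mammals. They were taken as the protein-coding genes whose GENCODE symbol on GRCm38 is Slc25a followed by digits alone, which gave 47 of the 55471 genes in the files. The RNA came from mouse blastocysts of embryonic day 4.5, in 8 libraries of 3 genotypes. G77S embryos (n = 3) were homozygous for the G77S substitution in Isca2, KO embryos (n = 2) were Isca2 -/-, and WT embryos (n = 3) were wild type at Isca2. Isca2 encodes a mitochondrial protein of iron-sulfur cluster assembly, and the series title concerns iron metabolism around implantation. The only cross in the labels is between superovulated heterozygous females and heterozygous males, with embryo culture afterwards. The cross behind the G77S embryos, the number of embryos per library, their sex and their litters are not given there. What the p-values weigh is therefore library-to-library spread, part of which may be technical.

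Most carriers sit in the inner mitochondrial membrane, are built from a repeated pair of membrane helices, and move a small molecule between the matrix and the space outside, often in exchange for another. The family brings in ADP and phosphate for ATP synthesis and sends ATP out. It also carries the acids and amino acids of the shuttle systems, and cofactors, nucleotides, glutathione and iron. The mitoferrins, Slc25a37 and Slc25a28, deliver the iron used for iron-sulfur clusters and heme. Preimplantation embryos depend on mitochondrial ATP, and the blastocyst is the stage at which glucose use rises.

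The libraries held 10323965 to 13490295 expected counts in G77S, 18467418 and 21146927 in KO, and 10790670 to 23842619 in WT. From the deposited lengths, fragments averaged 182 to 186 bases in the G77S group, against 244 to 292 bases elsewhere, so the G77S genotype and the library preparation cannot be told apart in any G77S comparison. Isca2 itself had 89.1, 105 and 133 CPM (counts relative to library size, scaled by TMM) in G77S, 4.84 and 6.20 CPM in KO, and 86.9, 173 and 154 CPM in WT. The KO libraries lay below all others (log2 fold change of KO over WT -4.64, SE 0.41, edgeR adjusted p = 0.00387), and the count of a whole gene does not read the substitution. Y-linked transcripts summed to 0.07 CPM in G77S replicate 1 and 0.335 CPM in WT replicate 1, against 215 to 418 CPM in the other 6 libraries. Summed trophectoderm marker RNA was 3965 to 4811 CPM in G77S, 7846 and 12904 CPM in KO and 7415 to 11332 CPM in WT, and Krt8 and Krt18 carried most of it. Of these 10 markers, 4 (Gata2, Krt18, Krt7 and Elf5) were called lower in G77S than in WT, where 2.09% of all genes were, 2 had a positive change (Tead4 and Cdx2), and 0 were called in KO over WT. Summed epiblast markers (9 of 9 tested) reached 154 to 274 CPM in G77S, 192 and 212 CPM in KO and 246 to 312 CPM in WT. Of these, Nanog alone had 66.9 to 176 CPM in G77S, 27.4 and 53.4 CPM in KO and 221 to 297 CPM in WT. A positive change was found for 8 of the 9 in G77S over WT and for 6 of the 9 in KO over WT. None was called in KO over WT, where 0.122% of all genes were. Pou5f1 was called higher in G77S than in WT (2.57, adjusted p = 0.0104) and than in KO (3.51, adjusted p = 0.00614). Summed primitive endoderm markers (6 of 8 tested) reached 565 to 1155 CPM in G77S, 1013 and 1472 CPM in KO and 1132 to 1459 CPM in WT, mostly Dab2. Of these 6, 4 had a positive change in G77S over WT and 5 in KO over WT, with 0 called in either, and Lama1 was called lower in G77S than in KO (-3.13, adjusted p = 0.0388). All 8 cumulus and granulosa markers were at 0 in every library. In bulk RNA, fewer cells of a type and less RNA per cell cannot be told apart.

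The promoters of the 3 carrier genes on which the results below turn are printed here, from RefSeq on GRCm38.p6. Slc25a43 was called lower in G77S than in WT, Slc25a4 higher in G77S than in KO, and Slc25a5 is the most abundant member and a neighbour of Slc25a43. Each window runs 5′ to 3′ on the gene's strand from 250 bases before the RefSeq start to 50 after it, and capitals mark every match to the motifs searched. The windows are chrX:36743382-36743681 (plus strand) for Slc25a43, chr8:46211013-46211312 (minus strand) for Slc25a4 and chrX:36795347-36795646 (plus strand) for Slc25a5.
Slc25a43: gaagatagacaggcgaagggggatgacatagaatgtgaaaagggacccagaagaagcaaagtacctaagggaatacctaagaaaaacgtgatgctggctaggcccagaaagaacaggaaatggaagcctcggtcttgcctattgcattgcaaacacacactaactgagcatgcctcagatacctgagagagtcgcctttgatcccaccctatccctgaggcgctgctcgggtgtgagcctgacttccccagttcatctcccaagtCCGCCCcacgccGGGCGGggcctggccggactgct
Slc25a4: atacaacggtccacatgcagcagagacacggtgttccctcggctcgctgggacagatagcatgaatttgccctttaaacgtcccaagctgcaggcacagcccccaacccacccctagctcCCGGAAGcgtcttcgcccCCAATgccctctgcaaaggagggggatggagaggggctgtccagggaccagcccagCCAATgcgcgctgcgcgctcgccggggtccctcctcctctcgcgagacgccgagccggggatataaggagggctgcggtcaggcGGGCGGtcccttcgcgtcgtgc
Slc25a5: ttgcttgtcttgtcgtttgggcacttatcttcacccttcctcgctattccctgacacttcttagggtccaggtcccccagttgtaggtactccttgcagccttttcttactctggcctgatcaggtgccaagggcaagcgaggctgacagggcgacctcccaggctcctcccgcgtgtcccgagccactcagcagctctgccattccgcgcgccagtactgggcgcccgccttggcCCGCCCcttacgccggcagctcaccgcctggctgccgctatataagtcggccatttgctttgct
The motifs were searched on both strands, and no match overlaps another in these windows. Slc25a43 held only the SP core (GGGCGG), at 16 and 28 bases after the start. Slc25a4 held an ETS core (CCGGAAG) 130 bases before the RefSeq start, a pair of CCAAT boxes and, 29 bases after that start, an SP core. The gene spans given below are GENCODE's and begin at other bases than the RefSeq starts. That of Slc25a4 reaches 46211284, inside its window, and that of Slc25a5 begins at 36795651, past the end of its window at 36795646. Slc25a5 held a single SP core, 14 bases before its start.

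Of the 47 genes, 36 had a window in the RefSeq table and 11 had none. The SP core was found in 30 of the 36 windows (83.3%), against 35.7% of all 32851 windows in the table. The CCAAT box was in 17 windows (47.2%, against 37.4% of all) and the ETS core in 7 (19.4%, against 8.86%). The TATA box (TATAAA) was in 1 window (2.78%, against 13.6%), that of Slc25a18, which had no counts in any library. The printed windows of Slc25a4 and Slc25a5 both hold the letters ATATAAG, which a search for TATAAA does not mark. The ERR element (TCAAGGTCA) was in 0 windows (0.423% of all). The median number of CpG dinucleotides differed by level, but the ranges overlapped. The 13 windows of genes averaging 10 TPM or more (RSEM's per-length abundance scale) held a median of 24 CpGs, with a range of 7 to 47. The 10 windows of genes between 1 and 10 TPM held a median of 17, with a range of 4 to 30. The 13 below 1 TPM held a median of 14, with a range of 1 to 32. All windows in the table held a median of 7. These are descriptions of letters in a fixed window and were not tested.

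Carrier RNA in the blastocyst was dominated by ADP, ATP and phosphate transport. The summed level of the 47 genes was 3057, 2931 and 2939 TPM in G77S, 2683 and 2075 TPM in KO, and 2819, 2257 and 2604 TPM in WT. The 3 G77S libraries lay above the 5 others. TPM are shares of each library, and the family took 0.432 to 0.468% of counts in G77S, 0.350 and 0.424% in KO, and 0.365 to 0.409% in WT. Slc25a5, Slc25a3 and Slc25a4 together held 79.8 to 84.3% of the family's TPM in every library. A 4th gene, the glutathione carrier Slc25a39, also averaged over 100 TPM in each genotype, and the other 43 averaged less.

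Down the scale, 10 genes averaged 10 to 100 TPM in G77S, against 7 in KO and 8 in WT. Another 19 in G77S, 17 in KO and 16 in WT lay between 1 and 10 TPM. Counts were found in all 8 libraries for 28 genes, and G77S libraries each held counts for 39 members, KO libraries for 35 and 37, and WT libraries for 32 to 36. Over all genes, 16006 to 17590 had a count in G77S, 14479 and 16052 in KO and 14155 to 15795 in WT. Slc25a2, Slc25a18, Slc25a27, Slc25a34 and Slc25a54 had 0 counts throughout. At 0 counts, a library allows up to 3 counts, which was 0.126 to 0.291 CPM before TMM scaling.

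**Figure D1:**
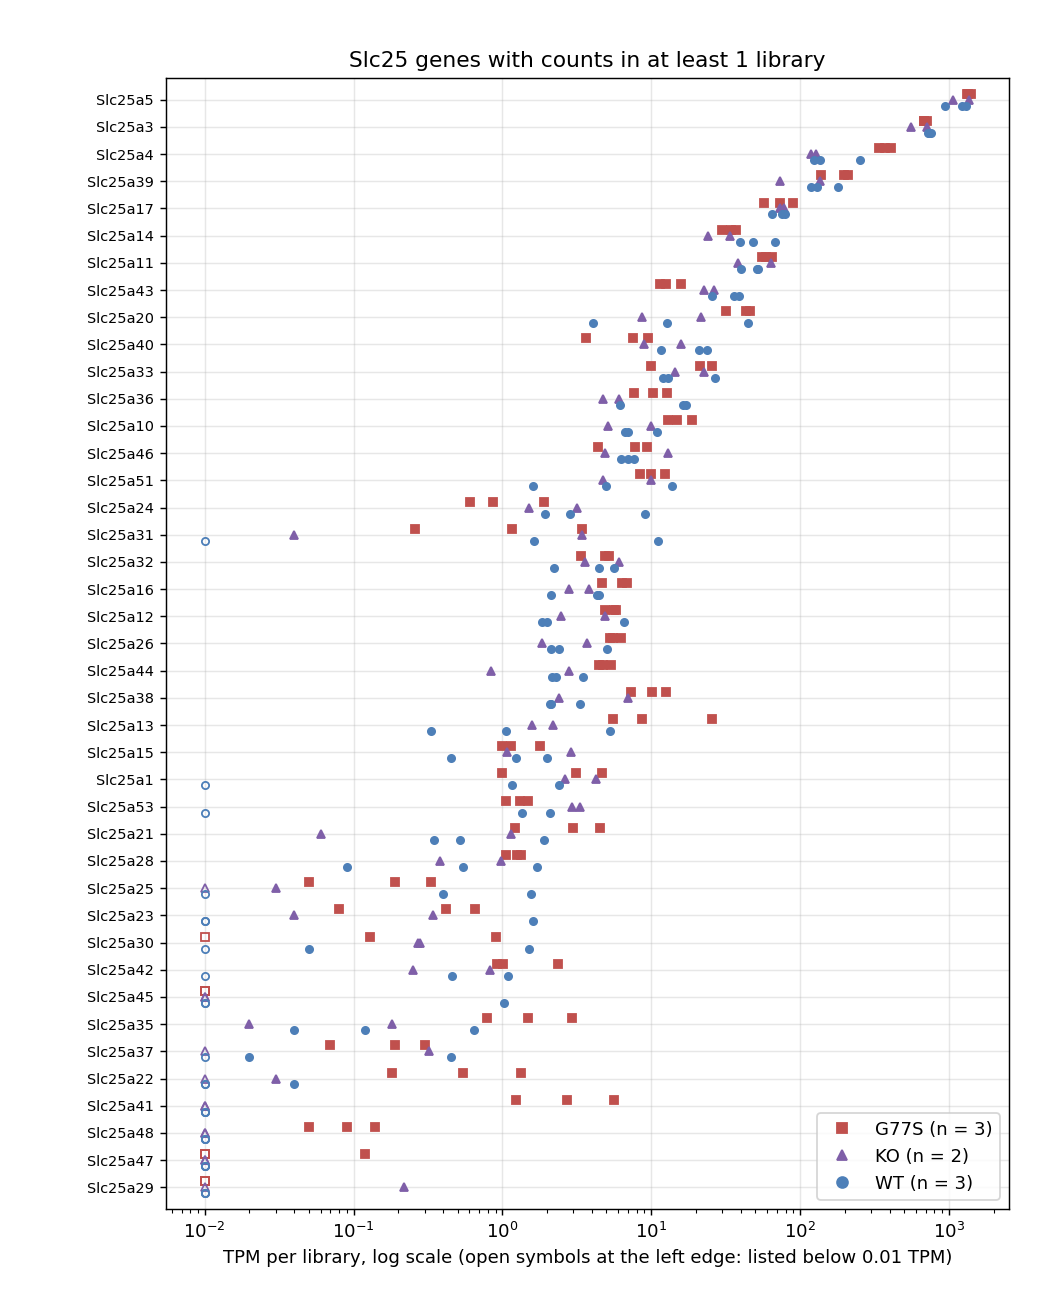
Levels of Slc25 genes with counts in at least 1 library, in TPM on a log scale, with 1 point per library coloured by genotype and the genes ordered by level. Slc25a5, Slc25a3, Slc25a4 and Slc25a39 stand at the top, and the mitoferrins Slc25a28 and Slc25a37 are near the bottom, at 1.71 TPM or less.

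By transported substrate, the 9 nucleotide carriers held 57.9 to 60.4% of the family's TPM in G77S, 56.7 and 58.4% in KO, and 48.6 to 57.7% in WT. The 4 phosphate and uncoupling-protein-like carriers held 24.4 to 24.5% in G77S, 28.0 and 28.1% in KO, and 28.3 to 35.3% in WT. The 9 cofactor and glutathione carriers held 8.78 to 11.7% in G77S, 8.67 and 9.35% in KO, and 9.60 to 10.4% in WT. The 3 genotypes overlapped in the cofactor group. In the phosphate group G77S lay below KO, and KO below WT, without overlap. The 5 carboxylate and acylcarnitine carriers held 4.0 to 4.15% in G77S, 2.72 and 3.70% in KO and 1.96 to 4.13% in WT. The 10 amino acid and choline carriers held 0.911 to 1.61% in G77S, 0.531 and 0.649% in KO and 0.313 to 0.690% in WT. The G77S libraries were the highest in the amino acid group.

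**Figure D2:**
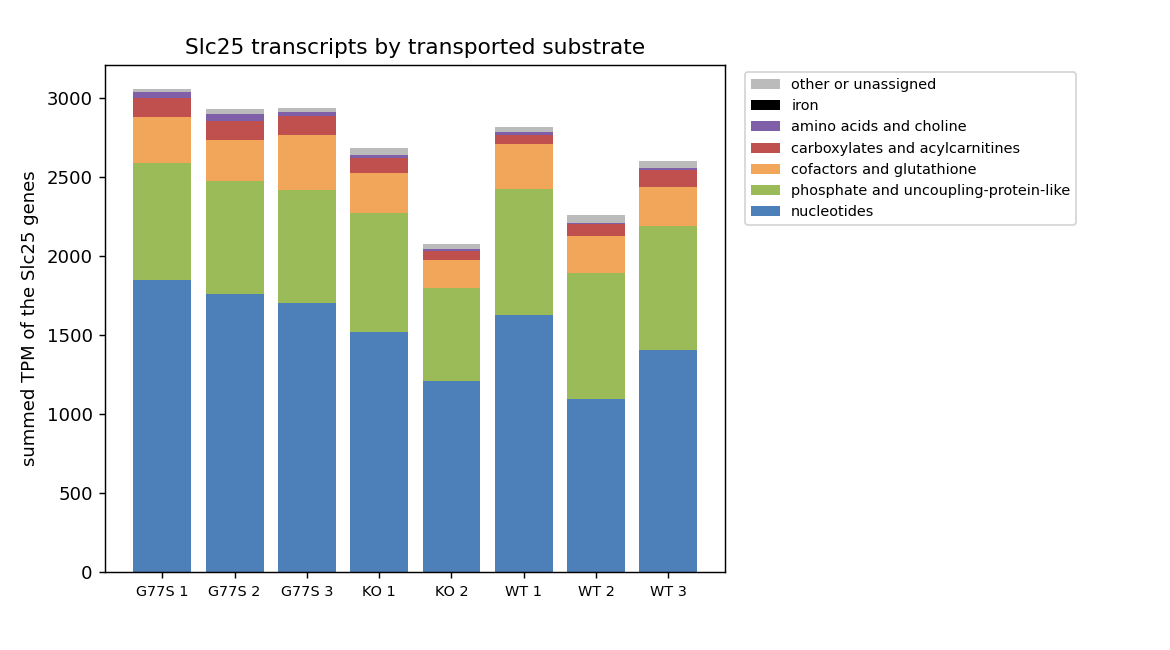
Summed TPM of the Slc25 genes in each of the 8 libraries, stacked by transported substrate. The nucleotide carriers make up the largest block in every library, from 48.6% of the family in WT replicate 2 to 60.4% in G77S replicate 1, and the iron carriers are too few to be seen.

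Of the 47 genes, 37 passed the low-count filter and were tested. The filter keeps a gene that is high in 1 genotype only, so the tested genes are not the whole family. In KO against WT, 0 of 37 genes were called by edgeR's quasi-likelihood test at an adjusted p under 0.05, where 0.122% of all 13953 genes tested were called, 0.0788% higher and 0.043% lower. An unadjusted p under 0.05 was reached by 2 of the 37 (Slc25a36 and Slc25a38), against 13% of all genes. The libraries of KO and WT did not overlap for 3 of the 37 (8.11%), against 25.6% of all genes. The median log2 fold change of KO over WT was -0.01 for the carriers and -0.06 for all genes, with 17 carriers positive and 19 negative. Slc25a41, counted among the 37, had 0 counts in both groups, so it could show no difference here. The median size of the change, whatever its sign, was 0.30 for the carriers and 0.59 for all genes. DESeq2 called 1 carrier (Slc25a36, lower, adjusted p = 0.0114), where it called 4.63% of all genes, and limma on log2(TPM + 1) called 0. On simulated counts, the edgeR fit recovered 5.37% of 2-fold and 43.9% of 4-fold changes in KO over WT. A lack of calls thus does not show a lack of change.

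In G77S against WT, 2 of 37 carriers were called, 1 higher (Slc25a41) and 1 lower (Slc25a43), where 3.39% of all genes were called, 1.3% higher and 2.09% lower. Slc25a41 passed the low-count filter through G77S alone, so its difference was built into its being tested. An unadjusted p under 0.05 was reached by 10 of 37, against 20% of all genes, and 11 of 37 (29.7%) did not overlap between the groups, against 29% of all genes. The median log2 fold change of G77S over WT was 0.15 for the carriers and 0.03 for all genes. In G77S against KO, 1 of 37 was called, Slc25a4, higher, where 4.19% of all genes were called, 1.76% higher and 2.43% lower. An unadjusted p under 0.05 was reached by 6 of 37, against 20.7% of all genes, and 19 of 37 (51.4%) did not overlap, against 44.9%. The median was -0.15 for the carriers and 0.10 for all genes. The comparisons with WT share the WT libraries, and those with KO share the KO libraries, so they are not independent of each other.

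**Figure D3:**
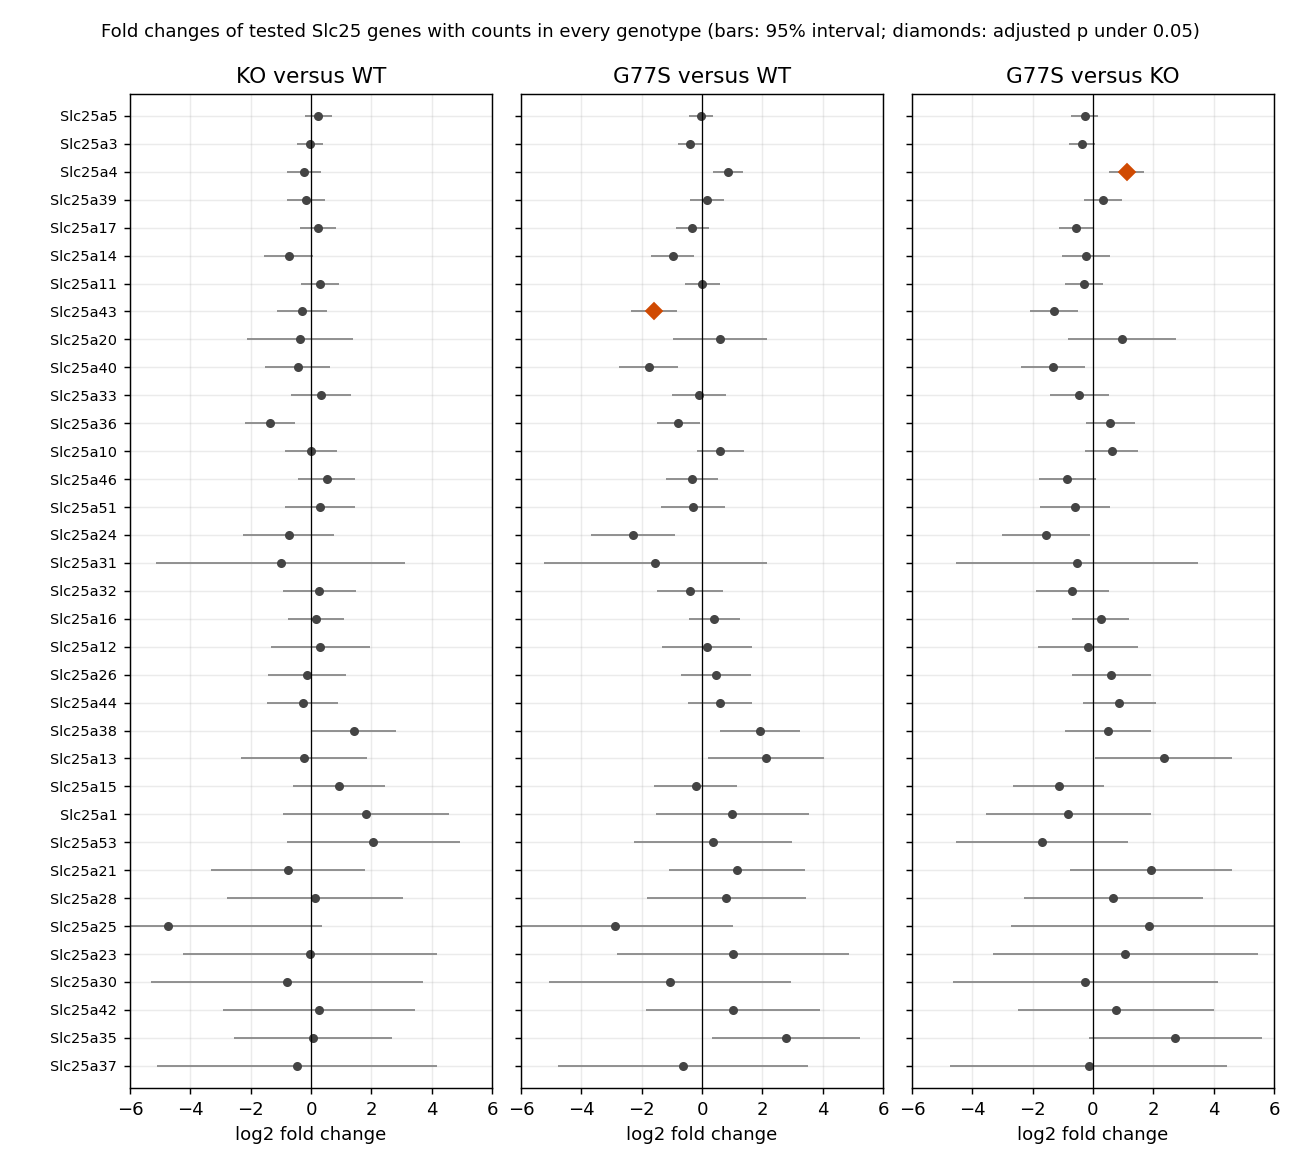
Log2 fold changes of tested Slc25 genes with counts in every genotype, in KO over WT, G77S over WT and G77S over KO, with bars for the 95% interval (that of Slc25a25 runs past the axis). Diamonds mark calls at an adjusted p under 0.05, which are Slc25a43 (-1.59) in G77S over WT and Slc25a4 (1.11) in G77S over KO.

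Slc25a5, Slc25a4 and Slc25a31 encode the ADP/ATP carriers, which pass ATP out of the matrix in exchange for ADP. Slc25a5 (ANT2) is the form of proliferating cells. It lies on the X chromosome at 36795651 to 36798807, on the plus strand. It had 1608, 1339 and 1415 CPM in G77S, 1874 and 1648 CPM in KO, and 1437, 1303 and 1710 CPM in WT. The G77S and WT libraries overlapped, KO and WT also overlapped, and KO lay above G77S. Log2 fold changes were -0.03 in G77S over WT (95% interval -0.42 to 0.37, adjusted p = 0.955) and 0.25 in KO over WT (-0.19 to 0.69, adjusted p = 0.659). On the log2(TPM + 1) scale, where the median of all genes was 0.23, the change in G77S over WT was 0.24. The annotated transcribed pseudogene Slc25a5-ps took at most 10.6 expected counts in a library, so few reads were assigned to this copy of the gene.

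Slc25a4 (ANT1) is the main ADP/ATP carrier of heart and skeletal muscle, and it lies on chromosome 8 at 46206797 to 46211284, on the minus strand. It had 777, 612 and 597 CPM in G77S, 303 and 309 CPM in KO, and 477, 289 and 319 CPM in WT. The 3 G77S libraries were above all others, and the KO pair lay within the range of WT. Slc25a4 rose in G77S relative to KO (662 ± 100 CPM, SD, n = 3, against 306 ± 4.48 CPM, n = 2; log2 fold change 1.11, SE 0.26, 95% interval 0.53 to 1.69, adjusted p = 0.0422). G77S over WT gave 0.87 (SE 0.23, 95% interval 0.37 to 1.37, adjusted p = 0.0646), which missed the threshold here and passed it under 6 of 17 alternatives. KO over WT gave -0.24 (95% interval -0.81 to 0.32, adjusted p = 0.76).

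The Slc25a4 call in G77S over KO was lost after a correction of each library for gene length and GC content (log2 fold change 0.73, adjusted p = 0.0937). It was also lost without WT replicate 3 (adjusted p = 0.0518), KO replicate 1 or 2 (0.162 and 0.183) and G77S replicate 1, 2 or 3 (0.142, 0.11 and 0.0903), with the direction kept in each.

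Slc25a31 (ANT4) is the ADP/ATP carrier of the germ line. It had 2.45, 0.476 and 6.68 CPM in G77S, 9.15 and 0.106 CPM in KO, and 23.6, 4.27 and 0 CPM in WT. All genotypes overlapped, and the libraries within each were far apart.

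The balance of the main ADP/ATP carriers was read as the log2 ratio of Slc25a4 to Slc25a5 TPM, with 0.1 TPM added to each. It was -1.77, -1.85 and -1.97 in G77S, -3.42 and -3.17 in KO, and -2.37, -2.93 and -3.17 in WT. Slc25a5 was the more abundant in every library, and the G77S libraries stood apart as the least uneven. The mean was -1.86 ± 0.10 (SD, n = 3) in G77S, -3.29 ± 0.18 (n = 2) in KO and -2.82 ± 0.41 (n = 3) in WT. G77S exceeded WT by 0.96 and KO by 1.43, each with an exact two-sided permutation p = 0.1, the smallest these designs allow (0.3 adjusted over 6 comparisons). KO minus WT was -0.47 (exact permutation p = 0.3), and those libraries overlapped. No balance could reach 0.05 with these numbers of libraries.

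**Figure D4:**
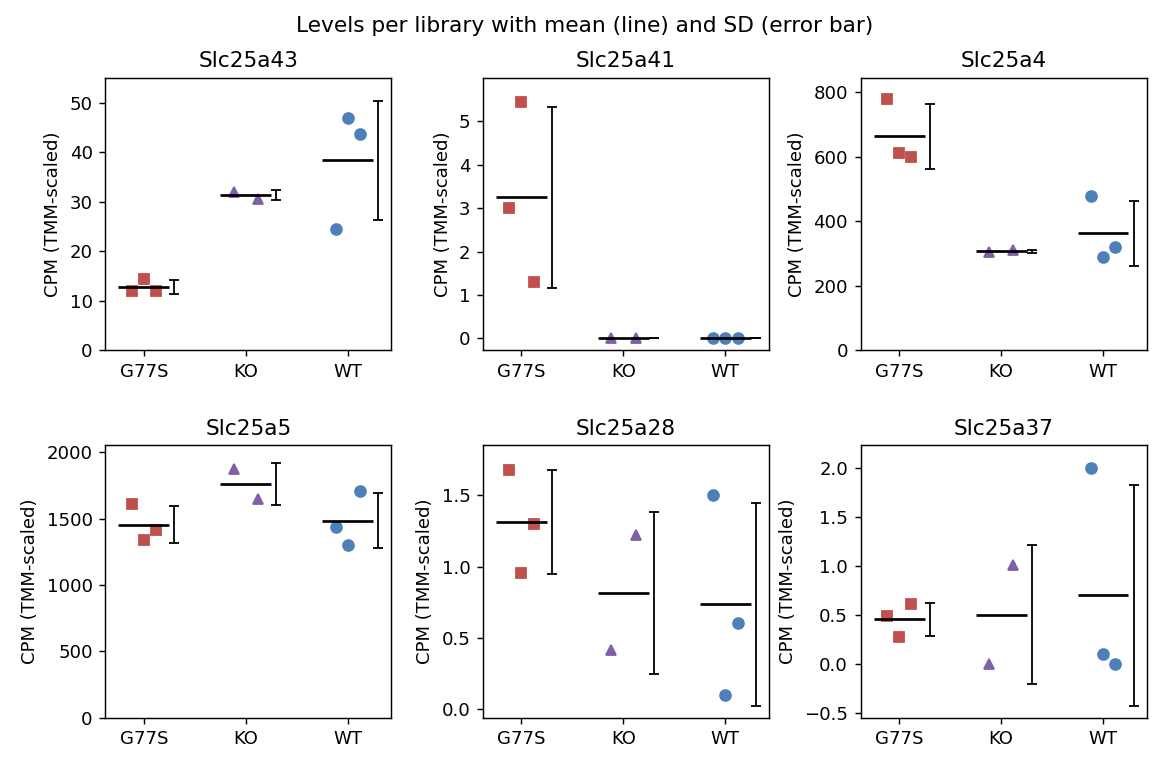
CPM (TMM-scaled) in each library for selected Slc25 genes by genotype, with lines at the mean and bars for SD. G77S libraries lie above all others for Slc25a4 (597 to 777 CPM) and Slc25a41 (1.3 to 5.44 CPM against 0), and below all others for Slc25a43 (11.9 to 14.4 CPM).

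The ATP-Mg/phosphate carriers adjust the pool of adenine nucleotides in the matrix. Slc25a41 is the member that lacks the calcium-binding N-terminus of the others, and it lies on chromosome 17 at 57032773 to 57041654, on the minus strand. It had 3.01, 5.44 and 1.3 CPM in G77S, 0 and 0 CPM in KO, and 0, 0 and 0 CPM in WT. All 138 counts of the gene were thus in the 3 G77S libraries. It rose in G77S relative to WT (adjusted p = 0.0448), at least 56.3-fold higher when WT is set at 3 counts over the group. Against KO it was at least 40.7-fold higher by the same rule (adjusted p = 0.0657, not called). Slc25a41 passed the low-count filter through G77S alone, so a difference was built into its being tested, and it was absent from the fit with at least 5 CPM in 2 libraries.

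The Slc25a41 call in G77S over WT was lost in the libraries with Y-linked RNA alone (adjusted p = 0.128). It was also lost without WT replicate 1, 2 or 3 (adjusted p = 0.0517, 0.084 and 0.0919) and without G77S replicate 1, 2 or 3 (0.147, 0.187 and 0.0882). The end of Slc25a23, another ATP-Mg/phosphate carrier gene on the same strand, is 2.056 kb from Slc25a41. Slc25a23 had 10, 8 and 2 counts in G77S, 3 and 5 in KO, and 12, 0 and 0 in WT.

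Slc25a24, a calcium-regulated member of this group, was chosen after its values were seen. It had 3.08, 5.78 and 2.0 CPM in G77S, 13.9 and 7.52 CPM in KO, and 32.5, 12.5 and 8.52 CPM in WT. The G77S libraries lay below all others, and KO overlapped WT. The log2 fold change was -2.30 in G77S over WT (SE 0.63, adjusted p = 0.0751) and -1.56 in G77S over KO (SE 0.67, adjusted p = 0.217). Neither passed the threshold, but G77S over WT passed it with no filter (0.00246), with at least 5 CPM in 2 libraries (0.0461) and with DESeq2 (0.00507). Slc25a25, another calcium-regulated member, had 0.136 to 0.63 CPM in G77S, 0 and 0.159 CPM in KO and 0 to 5.41 CPM in WT.

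Slc25a33 and Slc25a36 carry pyrimidine nucleotides into the matrix, where they serve the synthesis of mitochondrial DNA and RNA. Slc25a36 had the lowest adjusted p of the family in KO against WT and was chosen for that. It had 32.8, 39.9 and 33.4 CPM in G77S, 24.6 and 22.7 CPM in KO, and 59.1, 38.5 and 85.3 CPM in WT. Both KO libraries lay below the others, and G77S overlapped WT only at WT replicate 2. The log2 fold change of KO over WT was -1.37 (SE 0.38, 95% interval -2.20 to -0.54, adjusted p = 0.17), and that of G77S over WT was -0.79 (SE 0.32, adjusted p = 0.202). An annotated antisense gene, Gm16185, overlaps Slc25a36, and whether the counting used strand is not given in the sources used here. Slc25a33 had 17.1 to 47.2 CPM in G77S, 36.9 and 52.9 CPM in KO and 27.1 to 49.5 CPM in WT, with all groups overlapping.

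Slc25a3 encodes the phosphate carrier, which supplies the phosphate for ATP synthesis. It had 1106, 914 and 967 CPM in G77S, 1375 and 1181 CPM in KO, and 1140, 1372 and 1400 CPM in WT. The G77S libraries were the lowest, although G77S replicate 1 was close to WT replicate 1, and KO overlapped WT. Log2 fold changes were -0.39 in G77S over WT (SE 0.18, adjusted p = 0.25) and -0.03 in KO over WT (95% interval -0.47 to 0.41, adjusted p = 0.982). Slc25a3, Slc25a39 and Slc25a5 varied least among the WT libraries, with coefficients of variation of 10.9, 12.9 and 14.0%.

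Slc25a14 (UCP5), an uncoupling-protein-like carrier gene on the X chromosome, was named after its values were seen. It had 36.7, 38.3 and 42 CPM in G77S, 50.6 and 41.4 CPM in KO, and 45.2, 109 and 75.6 CPM in WT. G77S lay below WT without overlap, and KO overlapped both. The log2 fold change was -0.97 in G77S over WT (SE 0.33, adjusted p = 0.125) and -0.74 in KO over WT (SE 0.37, adjusted p = 0.427). In G77S over WT it passed the threshold with DESeq2 (0.037) and without WT replicate 1 (0.031). Its relatives Slc25a27 (UCP4) and Slc25a30 (KMCP1) had 0 counts and 0 to 7.05 CPM across the libraries.

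The mitoferrins were among the scarcest carriers detected. Slc25a37 (mitoferrin-1), the main form of developing red cells, had 0.49, 0.272 and 0.607 CPM in G77S, 0 and 1.01 CPM in KO, and 2.01, 0.0993 and 0 CPM in WT. These are 4 to 7 counts in a G77S library, 0 and 19 counts in KO, and 36, 1 and 0 counts in WT. Slc25a28 (mitoferrin-2), the widely expressed form, had 1.68, 0.952 and 1.3 CPM in G77S, 0.413 and 1.22 CPM in KO, and 1.51, 0.0993 and 0.602 CPM in WT. For each gene the genotypes overlapped, and neither was called in any comparison. Slc25a37 had no more than 3 counts in 3 of the 8 libraries, and Slc25a28 in 1 (WT replicate 2). Both genes together made up 0.0627% or less of the family's TPM in KO and G77S and 0.0766% or less in WT.

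The log2 ratio of Slc25a37 to Slc25a28 TPM was -2.28 ± 0.46 (SD, n = 3) in G77S, -1.81 ± 0.64 (n = 2) in KO and -1.69 ± 1.01 (n = 3) in WT. Mitoferrin-2 was thus the more abundant form on average in each genotype. G77S minus WT was -0.59 (exact two-sided permutation p = 0.4), G77S minus KO was -0.47 (exact permutation p = 0.5) and KO minus WT was -0.13 (exact permutation p = 0.9). The KO minus WT difference had the opposite sign with 1 TPM added (0.015), without KO replicate 1 (0.32) and without WT replicate 2 (0.39). Antisense genes Gm27222 and Gm27223 overlap Slc25a37. Summed RNA of erythroid markers, the lineage in which mitoferrin-1 is best known, was 7.90 to 15.6 CPM in G77S, 0.650 and 1.32 CPM in KO, and 0.695 to 9.87 CPM in WT.

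The glutathione carrier Slc25a39 led the cofactor group. It had 313, 187 and 291 CPM in G77S, 257 and 162 CPM in KO, and 263, 203 and 238 CPM in WT. All genotypes overlapped, and the log2 fold changes were 0.17 in G77S over WT (SE 0.26, adjusted p = 0.78) and -0.16 in KO over WT (adjusted p = 0.884). Its paralog Slc25a40 had 10.3, 18.9 and 25.4 CPM in G77S, 56.9 and 34.7 CPM in KO, and 31.7, 82.5 and 72.0 CPM in WT. The G77S libraries of Slc25a40 lay below all others. The log2 fold change was -1.77 in G77S over WT (SE 0.45, adjusted p = 0.0595), -1.33 in G77S over KO (SE 0.48, adjusted p = 0.149) and -0.44 in KO over WT (adjusted p = 0.779). It passed the threshold under 5 of the alternative fits in G77S over WT and under 2 in G77S over KO.

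Per length, Slc25a39 had 138 to 210 TPM in G77S, 73.8 and 135 TPM in KO and 118 to 180 TPM in WT, and Slc25a40 had 3.66 to 9.55 TPM in G77S, 8.95 and 15.9 TPM in KO and 11.6 to 23.8 TPM in WT. Among the rest of the group, Slc25a17, a cofactor carrier of peroxisomes, had 95.4 to 139 CPM in G77S, 153 and 179 CPM in KO and 106 to 162 CPM in WT. Slc25a51, the NAD carrier, had 12.9 to 18.3 CPM in G77S, 21.5 and 25.4 CPM in KO and 8.24 to 33.7 CPM in WT. The carriers for S-adenosylmethionine (Slc25a26), folate and flavins (Slc25a32) and coenzyme A (Slc25a42, with the candidate Slc25a16) stayed at 19.6 CPM or less in every library. Of the 9 genes of this group, 0 were called in any comparison, where 0.122 to 4.19% of all genes were.

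Slc25a11, the oxoglutarate/malate carrier of the malate-aspartate shuttle, was the most abundant carboxylate carrier. It had 87.8, 86.4 and 88.6 CPM in G77S, 129 and 85.0 CPM in KO, and 63.3, 96.5 and 101 CPM in WT. The genotypes overlapped, and the G77S libraries were the closest to one another. Slc25a20, the carnitine/acylcarnitine carrier of fatty acid oxidation, had 76.3, 47.7 and 74.0 CPM in G77S, 47.2 and 20.8 CPM in KO, and 7.03, 27.0 and 97 CPM in WT. Its WT libraries spanned both ends of the range (coefficient of variation 108%). The dicarboxylate carrier Slc25a10 had 23.6 to 36.5 CPM in G77S, 14.1 and 22.9 CPM in KO and 16.5 to 22 CPM in WT. The citrate carrier Slc25a1 and the oxoadipate carrier Slc25a21 had 7.34 CPM or less in every library. None of these 5 genes was called in any comparison, where 0.122 to 4.19% of all genes were.

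The aspartate/glutamate carriers Slc25a12 (aralar) and Slc25a13 (citrin) run the other arm of the malate-aspartate shuttle. Slc25a12 had 9.66, 7.0 and 9.11 CPM in G77S, 12.5 and 6.68 CPM in KO, and 15.3, 1.69 and 6.02 CPM in WT. Slc25a13 had 23.9, 49.0 and 13.9 CPM in G77S, 5.49 and 5.88 CPM in KO, and 16.8, 1.29 and 1.81 CPM in WT. Slc25a12 overlapped across the genotypes, while for Slc25a13 WT replicate 1 fell among the G77S libraries and the KO pair lay below them. The log2 fold change of Slc25a13 was 2.11 in G77S over WT (SE 0.87, adjusted p = 0.205) and 2.35 in G77S over KO (SE 1.03, adjusted p = 0.227). Without WT replicate 1, the value of G77S over WT was 4.20 (adjusted p = 0.00966), and without G77S replicate 2 it was 1.52 (adjusted p = 0.523). Under 3 of the alternative fits each, it passed the threshold in G77S over WT and in G77S over KO.

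Slc25a38, the glycine carrier that feeds heme synthesis, was named after its values were seen. It had 17.6, 7.75 and 12.0 CPM in G77S, 13.1 and 4.61 CPM in KO, and 2.06, 2.68 and 5.05 CPM in WT. G77S lay above WT without overlap, and KO replicate 2 fell within WT. The log2 fold change was 1.92 in G77S over WT (SE 0.60, adjusted p = 0.102), 1.43 in KO over WT (SE 0.64, adjusted p = 0.378) and 0.50 in G77S over KO (SE 0.65, adjusted p = 0.717). In G77S over WT it passed the threshold with DESeq2 (0.0213) and limma (0.0383). The value of KO over WT was 0.49 without KO replicate 1 and 1.99 without KO replicate 2. Slc25a44, the branched-chain amino acid carrier, had 15.0 to 16.9 CPM in G77S, 3.84 and 13.9 CPM in KO and 9.53 to 12.7 CPM in WT, and was not called. The ornithine carrier Slc25a15 had 13.3 CPM or less in every library.

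Of the 10 amino acid and choline carriers, 5 were too low to be tested. Slc25a2, an ornithine carrier, and Slc25a18, a glutamate carrier, had 0 counts. Slc25a22, the other glutamate carrier, had 4, 6 and 5 counts in G77S, 0 and 2 in KO, and 0, 1 and 0 in WT. The basic amino acid carrier Slc25a29 had 9 counts in KO replicate 1 alone, and the choline carrier Slc25a48 had 7, 4 and 2 counts in G77S and 0 elsewhere. Slc25a45 had 51 counts in WT replicate 3 alone, and Slc25a47 had 2 counts in G77S replicate 3 alone. Counts of this kind in 1 library of a group allow no comparison.

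Slc25a43 was the only carrier that edgeR called lower in any of the 3 comparisons. It encodes a family member to which no substrate is assigned here, and it lies on the X chromosome at 36743659 to 36777202, on the plus strand, 18.448 kb before Slc25a5. It had 11.9, 14.4 and 11.9 CPM in G77S, 32 and 30.6 CPM in KO, and 24.5, 46.9 and 43.7 CPM in WT. The G77S libraries were close together and below all 5 others, and the KO pair lay within the range of WT. Slc25a43 fell in G77S relative to WT (12.7 ± 1.46 CPM, SD, n = 3, against 38.4 ± 12.1 CPM, n = 3; log2 fold change -1.59, SE 0.34, 95% interval -2.34 to -0.84, adjusted p = 0.0334). G77S over KO gave -1.3 (SE 0.37, adjusted p = 0.0754), and KO over WT gave -0.29 (SE 0.37, adjusted p = 0.816). The direction in G77S over WT was the same under all 17 alternatives, from -1.25 to -1.83.

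Among the 6 libraries that held Y-linked RNA, Slc25a43 in G77S over WT had -1.78 (adjusted p = 0.0381). The call was lost without WT replicate 2 or 3 (adjusted p = 0.0909 and 0.0927) and without G77S replicate 1, 2 or 3 (0.128, 0.119 and 0.11). The small nucleolar RNA gene Gm23613 lies within the span of Slc25a43. Its X-linked neighbour Slc25a5, whose promoter is printed above beside that of Slc25a43, had a log2 fold change of -0.03 in the same comparison. Of the 4 X-linked carriers, Slc25a53 had 1.29 to 2.38 CPM in G77S, 4.67 and 6.94 CPM in KO and 0 to 3.01 CPM in WT, and was not called. The part of trophectoderm content and of fragment length in the G77S results of Slc25a43, Slc25a41 and Slc25a4 was not tested.

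The remaining genes without an assigned substrate were Slc25a46, which encodes an outer-membrane protein that shapes mitochondria, and Slc25a35. Slc25a46 had 20.0 to 39.7 CPM in G77S, 31.1 and 76.2 CPM in KO and 29.3 to 43.4 CPM in WT. Slc25a35 had 1.82 to 5.85 CPM in G77S, 0.118 and 0.954 CPM in KO and 0.199 to 0.880 CPM in WT, so that the G77S libraries were the highest. RSEM had split shared reads for Slc25a35 in all 8 libraries and for Slc25a46 in 7, and the gene Rangrf overlaps Slc25a35, so its level is uncertain. Neither gene was called.

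Of the 10 genes that import carriers into the inner membrane, 0 were called in any comparison, where 3.39% (G77S over WT), 4.19% (G77S over KO) and 0.122% (KO over WT) of all genes were called, with medians of 0.04 in G77S over WT and 0.10 in KO over WT. Timm13, a chaperone of the intermembrane space and the most abundant, had 241 to 300 CPM in G77S, 260 and 282 CPM in KO and 215 to 336 CPM in WT. Of 5 carrier relatives outside the symbol rule, 3 were tested and 0 called; Mtch2, an outer-membrane relative, had a log2 fold change of 0.21 in G77S over WT (adjusted p = 0.628). The 4 tested carnitine shuttle enzymes also gave 0 calls, and Cpt2 had 0.13 in G77S over WT (adjusted p = 0.872).

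Single genes of the other partner lists were called in the G77S comparisons, and 0 of these lists' genes were called in KO over WT. Over all genes, 3.39% were called in G77S over WT, 4.19% in G77S over KO and 0.122% in KO over WT. Among 17 other inner membrane transporters, Tmem14c, which moves a heme precursor, fell in G77S relative to WT (-2.26, adjusted p = 0.00241) and to KO (-1.54, adjusted p = 0.00964). Among 3 outer membrane porins, Vdac3 fell relative to WT (-0.84, adjusted p = 0.0396) and to KO (-1.46, adjusted p = 0.00542). Among 4 malate-aspartate shuttle enzymes, the cytosolic malate dehydrogenase Mdh1 fell relative to WT (-1.67, adjusted p = 0.0034) and to KO (-1.91, adjusted p = 0.00275), while the mitochondrial Mdh2 had 0.08 over WT (adjusted p = 0.839). Mthfd2, of 6 mitochondrial one-carbon enzymes, fell relative to WT (-2.89, adjusted p = 0.0175). Alad, of 8 heme synthesis genes, rose relative to WT (1.08, adjusted p = 0.0451).

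Of 8 tested partners of the ADP/ATP carriers (ATP synthase subunits, adenylate and creatine kinases), 0 were called in G77S over WT. Of all genes, 3.39% were called there and 4.19% in G77S over KO. In G77S over KO, the matrix adenylate kinase Ak4 rose (2.52, adjusted p = 0.047), and the mitochondrial creatine kinase Ckmt1 fell (-1.37, adjusted p = 0.02). Ak4 had 249, 143 and 144 CPM in G77S, 11.8 and 50.6 CPM in KO, and 45.5, 108 and 108 CPM in WT. The G77S libraries of Ak4 lay above all others, but it was not called in G77S over WT (1.04, adjusted p = 0.281). Groups did not overlap for 44.9% of all genes in G77S against KO and 29% in G77S against WT.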

How the data were processed

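Full-length mRNA of blastocysts was amplified with a single-cell kit and made into libraries with a transposase kit, per the labels' protocols. Per the submitters' processing notes, which name tools without their roles, these were RSEM 1.3.1, STAR 2.6.1c, Trim Galore 0.4.5 and DESeq2 1.42.1, with the build mm10 (GRCm38). The deposited gene tables hold RSEM expected counts (reads shared between genes are split) and TPM and FPKM, scaled within a library by the authors, per the file headers; FPKM was not analysed here. No annotation release or strand setting is given in the sources used here. GENCODE GRCm38 symbols matched 55230 of 55471 identifiers (99.6%).

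Expected counts were rounded to whole numbers. Depth was 10323965 to 23842619 counts per library; floors and lower bounds cover counting error only, while the 95% intervals of fold changes come from the fit and include the spread between libraries. All 8 libraries were fitted in edgeR 4.0.16 (R 4.3.3): TMM scaling, the group-wise low-count filter (13953 genes), 1 mean per genotype, and the quasi-likelihood F test, with p-values adjusted over all genes (Benjamini-Hochberg) and calls at an adjusted p under 0.05. Where no tool is named, an adjusted p comes from this fit. The fit was tested on simulated counts with known changes. Of 2-fold, 4-fold and 8-fold changes it recovered 5.37, 43.9 and 73.3% in KO over WT. The shares were 11.3, 55.2 and 79.1% in G77S over WT, and 5.07, 46.6 and 71.2% in G77S over KO. Most 2-fold changes would thus be missed. Balances of 2 genes used log2(TPM + 0.1) and exact two-sided permutation tests. Alternatives were RLE scaling, no filter, at least 5 CPM in 2 libraries, only the 2 groups compared, a replicate block, DESeq2 1.42.0, limma 3.58.1 on log2(TPM + 1), removal of length and GC trends, only libraries with Y-linked RNA, and leaving out each library; for balances, 1 TPM added, CPM in place of TPM, and leaving out each library.

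The members, partner lists, markers and roles were chosen with earlier results of these data known. The rule for named genes took Isca2, both mitoferrins, called members, and the most abundant member of each role group with its paralogs; from each partner list it took up to 3 called genes or, with none, the most abundant. Others are said to have been named after their values were seen or are given as ranges. Promoters came from RefSeq (GRCm38.p6). No protein sequences were used here. The counts and sums cover all 47 members, but 1 of them is not reported here by itself or drawn.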

Additional observations from a re-analysis of the deposited data

How the results depend on the processing

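In KO over WT the count of called carriers was 0 under all alternatives except DESeq2 (1, Slc25a36, with 4.63% of all genes), and 0 on leaving out each library. In G77S over WT, 2 carriers were called; where 3.39% of all genes were; the count was 6 with no filter (5.82% of all genes), 4 with at least 5 CPM in 2 libraries (8.61%), 7 with DESeq2 (11%), 4 with limma on log2(TPM + 1) (3 higher, 1 lower; 10.5%), 4 in the libraries with Y-linked RNA (2.38%), and 0 to 5 without 1 library (5 without WT replicate 1; 0 without WT replicate 2 or 3 and without each G77S library). In G77S over KO, 1 was called, where 4.19% of all genes were. The count was 4 with no filter (6.15% of all genes), 4 with only the 2 groups compared (7.82%) and 4 with DESeq2 (12.2%). It was 3 with limma (13.3%) and 0 with length and GC trends removed (4.34%). Leaving out 1 library gave 4 without WT replicate 1 (7.08%) and 0 without WT replicate 3 (4.12%). The count was also 0 without G77S replicate 1, 2 or 3 (1.59, 1.16 and 1.75%). Counts without a KO library are not listed for G77S over KO, because 1 KO library is left. The call of Slc25a4 did not hold in those fits either, as given above. Its log2 fold change in G77S over KO was 0.95 to 1.17 over all fits without 1 library. With the replicate number as a block, the count was 0 in G77S over WT (Slc25a43 adjusted p = 0.0517, Slc25a41 adjusted p = 0.1), 1 in G77S over KO and 0 in KO over WT. Deviations of libraries with the same number correlated at -0.0442 to 0.0987, so the numbers were not taken as pairs. The limma scale moved the median of all genes to 0.23, 0.34 and -0.12 in G77S over WT, G77S over KO and KO over WT. Signs turned only for changes that were not called. In KO over WT, Slc25a4 had 0.037 in the libraries with Y-linked RNA and -0.38 to 0.010 without 1 library, Slc25a3 -0.14 to 0.077 (positive without WT replicate 2, WT replicate 3 or KO replicate 2), and Slc25a39 -0.53 to 0.13 (positive without KO replicate 2). In G77S over WT, Slc25a5 had 0.0027 (at least 5 CPM), 0.24 (limma), 0.037 (trends removed) and -0.12 to 0.090 without 1 library (positive without WT replicate 3, G77S replicate 2 or G77S replicate 3), and Slc25a39 had -0.17 (trends removed). Slc25a38 in G77S over KO had -0.068 to 1.43 (negative without KO replicate 2). The mitoferrin balance in KO over WT was 0.015 with 1 TPM added and -0.62 to 0.39 without 1 library. The causes were not tested. Without 1 KO library, the lone KO library is assumed to vary like the other groups. Low counts limit Slc25a37 and the 10 untested members.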
